A study of Mus musculus with 6 samples.

Results

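Antioxidant and glutathione defence genes are described here in sham and tail-suspended mouse hearts. The set holds 42 genes, chosen by name from the array's own annotation out of 28909 gene names, and each gene was read from its brightest probe. They cover superoxide dismutases and catalase, peroxidases, the thioredoxin system, glutathione synthesis and transfer, thiol repair, quinone and haem enzymes, sestrins, and the regulators NRF2 and KEAP1. Cardiac muscle of male C57BL/6 mice was profiled with 1-colour Agilent arrays, with 3 sham and 3 tail-suspension samples, all 6 on 1 slide. Tail-suspension lifts the hindlimbs off the floor and is used as a model of microgravity. It lasted 28 days and began in mice labelled 10 weeks old, and the sham animals were kept in the same space without suspension. All 6 samples are labelled 11 weeks old, which differs from 28 days after a start at 10 weeks, and the age at sampling is therefore not settled. The labels name no drug and no genetic change for either group. The labels do not say whether each sample came from a separate animal, so p-values measure the spread between these samples, which may be technical.

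Cells remove superoxide with superoxide dismutases, which make hydrogen peroxide, and catalase, glutathione peroxidases and peroxiredoxins then break down the peroxide. For glutathione peroxidases and peroxiredoxins, glutathione and thioredoxin supply the electrons, and reductases recharge both from NADPH. In heart muscle, where mitochondria are dense, many of these enzymes also have mitochondrial forms. NRF2, held back by KEAP1, is known to switch on many of the genes through short antioxidant response elements in their promoters.

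Of the 42 genes, 7 were higher and 3 were lower in tail-suspended hearts. Those higher were Gpx3, Sesn1, Hmox1, Gstm1, Gstm2, Gclc and Gstp1, and those lower were Glrx, Gstt1 and Msra. The other 32 did not pass the test, and 21 of them differed by less than 0.2 on the log2 scale in either direction. The calls come from limma with Benjamini-Hochberg adjustment over all probes tested and a threshold of 0.05. Among all 17137 genes tested, 10.1% were higher and 10.5% were lower, against 16.7% and 7.14% of the set. The median log2 fold change of the set was 0.03, and that of all genes was −0.02. Log2 fold changes here are tail-suspension minus sham, on levels divided by the array's own 75th percentile.

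**Figure D1:**
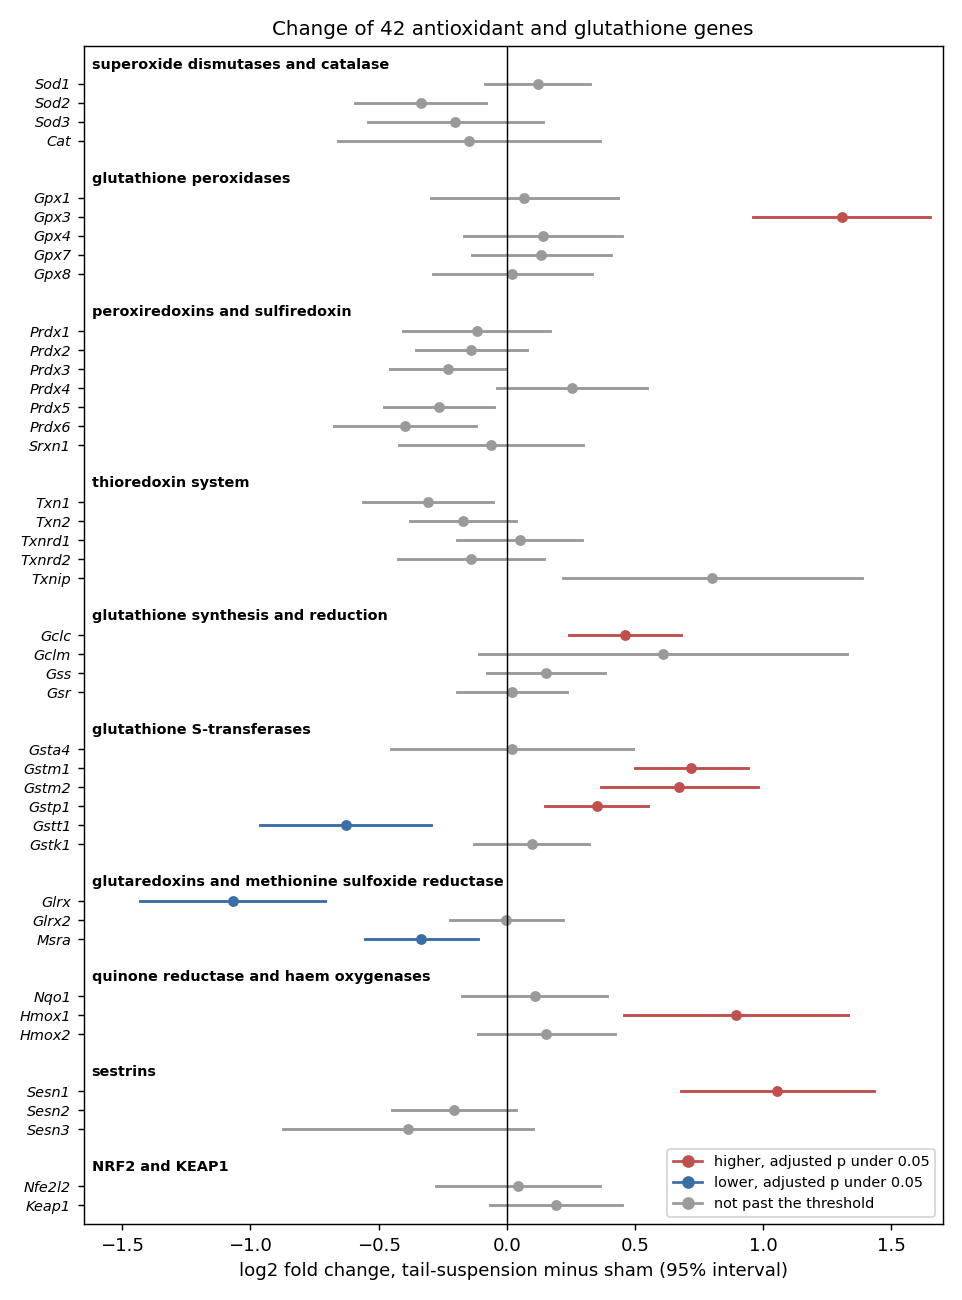
Log2 fold change (horizontal axis, tail-suspension minus sham) of each of the 42 genes, grouped by role, with its 95% interval from limma. The 7 genes in red run from Gstp1 at 0.35 to Gpx3 at 1.31, the 3 in blue from Glrx at −1.07 to Msra at −0.33, and the rest in grey did not pass the adjusted threshold.

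All 42 genes gave a signal well above background on all 6 arrays, so no level rests on a bound, and none was saturated. The 10 cardiomyocyte markers were also well above background on all 6 arrays. Per array, 50.9% to 53.4% of all probes gave a signal well above background. Correlations of log2 levels ran from 0.991 to 0.996 within groups and from 0.978 to 0.984 across groups. Precision is limited by the number of arrays, and with 3 against 3 an exact permutation test cannot give a two-sided p below 0.1. The groups did not overlap for any of the 10 genes called, nor for 10 genes that were not called. Over the set, every tail-suspension array lay above every sham array for 23.8% of genes and below for 23.8%, against 21.5% and 24.3% of all genes tested.

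The arrays shared rows of the slide unevenly. The 3 sham arrays and tail-suspension 1 lay in row 1, and tail-suspension 2 and 3 lay in row 2. With the row as a block, only tail-suspension 1 is set against the 3 sham arrays. With 1 array on that side, whether the calls hold within a row cannot be decided. That comparison rests on 1 of the arrays behind the calls. In it the difference was 1.24 for Gpx3, 1.07 for Sesn1, 0.73 for Gstm1 and −0.93 for Glrx. The difference was 0.595 for Hmox1, 0.57 for Gstm2, 0.39 for Gclc and 0.35 for Gstp1. For Gstt1 and Msra it was −0.59 and −0.26.

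Superoxide dismutases and catalase form the first step of the chain, and none of the 4 passed limma's adjusted threshold. Before adjustment 1 of them, Sod2, had a p under 0.05 in limma and in the methods' t-test. Of all genes tested, 18.4% were higher and 20.6% lower at an unadjusted p under 0.05 in limma and 16.7% and 18.8% in the methods' t-test, which after adjustment left 4.56% and 4.57%. Sod1, the copper and zinc enzyme of the cytosol, had log2 levels of 7.73, 7.61 and 7.64 in sham hearts and 7.72, 7.82 and 7.81 in tail-suspended hearts. These overlapped, and the log2 fold change was 0.12 (95% interval −0.09 to 0.33).

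Sod2, the manganese enzyme of mitochondria, had log2 levels of 8.75, 8.76 and 8.51 in sham hearts and 8.41, 8.24 and 8.36 in tail-suspended hearts. Every tail-suspension array was below every sham array, and the log2 fold change of −0.34 had an adjusted p of 0.0694 in limma. It passed under 5 of the 15 alternatives that kept all arrays. Among them were quantile normalization, the authors' own log2 values and, without adjustment, the methods' t-test. Sod2 also passed without sham 3 (−0.42, adjusted p = 0.0485), but not with any other array left out (adjusted p from 0.111 to 0.204 in limma). Sod3, the secreted enzyme bound to the cell surface, had log2 levels of 3.43, 3.35 and 3.35 in sham hearts and 3.36, 2.87 and 3.29 in tail-suspended hearts. Tail-suspension 2 was the lowest of the 6 arrays by a wide gap, and the log2 fold change was −0.20 with an interval of −0.54 to 0.14.

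Cat encodes catalase, the peroxide-splitting enzyme of peroxisomes. Its log2 levels were 3.36, 3.51 and 3.46 in sham hearts and 3.07, 3.81 and 3.02 in tail-suspended hearts. Tail-suspension 2 was above all sham arrays and the other two were below them. Over all arrays the log2 fold change was −0.15 (adjusted p = 0.651 in limma), and without tail-suspension 2 it was −0.40 (adjusted p = 0.0404). With any other array left out it ran from −0.19 to −0.005 and did not pass (adjusted p from 0.651 to 0.99 in limma). A second Cat probe gave 0.13 and did not pass either.

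Glutathione peroxidases use glutathione to reduce peroxides. Only Gpx3 among the 5 passed the adjusted threshold, and it had the largest change of all 42 genes. Gpx3 encodes the secreted selenium-containing peroxidase found in plasma. Its log2 levels were 3.88, 3.76 and 3.77 in sham hearts and 5.04, 4.87 and 5.40 in tail-suspended hearts. The lowest tail-suspension array was about 1 log2 unit above the highest sham array. The mean was 3.80 ± 0.07 in sham and 5.11 ± 0.27 in tail-suspended hearts (SD, n = 3 each), a log2 fold change of 1.31 (SE 0.15) or 2.47-fold, with an adjusted p of 0.00370 in limma. Of the 17137 genes tested, it ranked 316th by rise. Its probe lies at chr11:54723436-54723495 on the plus strand of mm9, by the array's annotation. Whichever array was left out, its log2 fold change lay between 1.16 and 1.42 and passed.

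The other 4 peroxidases did not follow. Gpx1, the main peroxidase of the cytosol, had a log2 fold change of 0.07, and Gpx4, which reduces lipid peroxides in membranes, had 0.14. Gpx7 and Gpx8, both of the endoplasmic reticulum, had 0.14 and 0.02. The widest of these intervals, that of Gpx1, ran from −0.30 to 0.44.

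**Figure D2:**
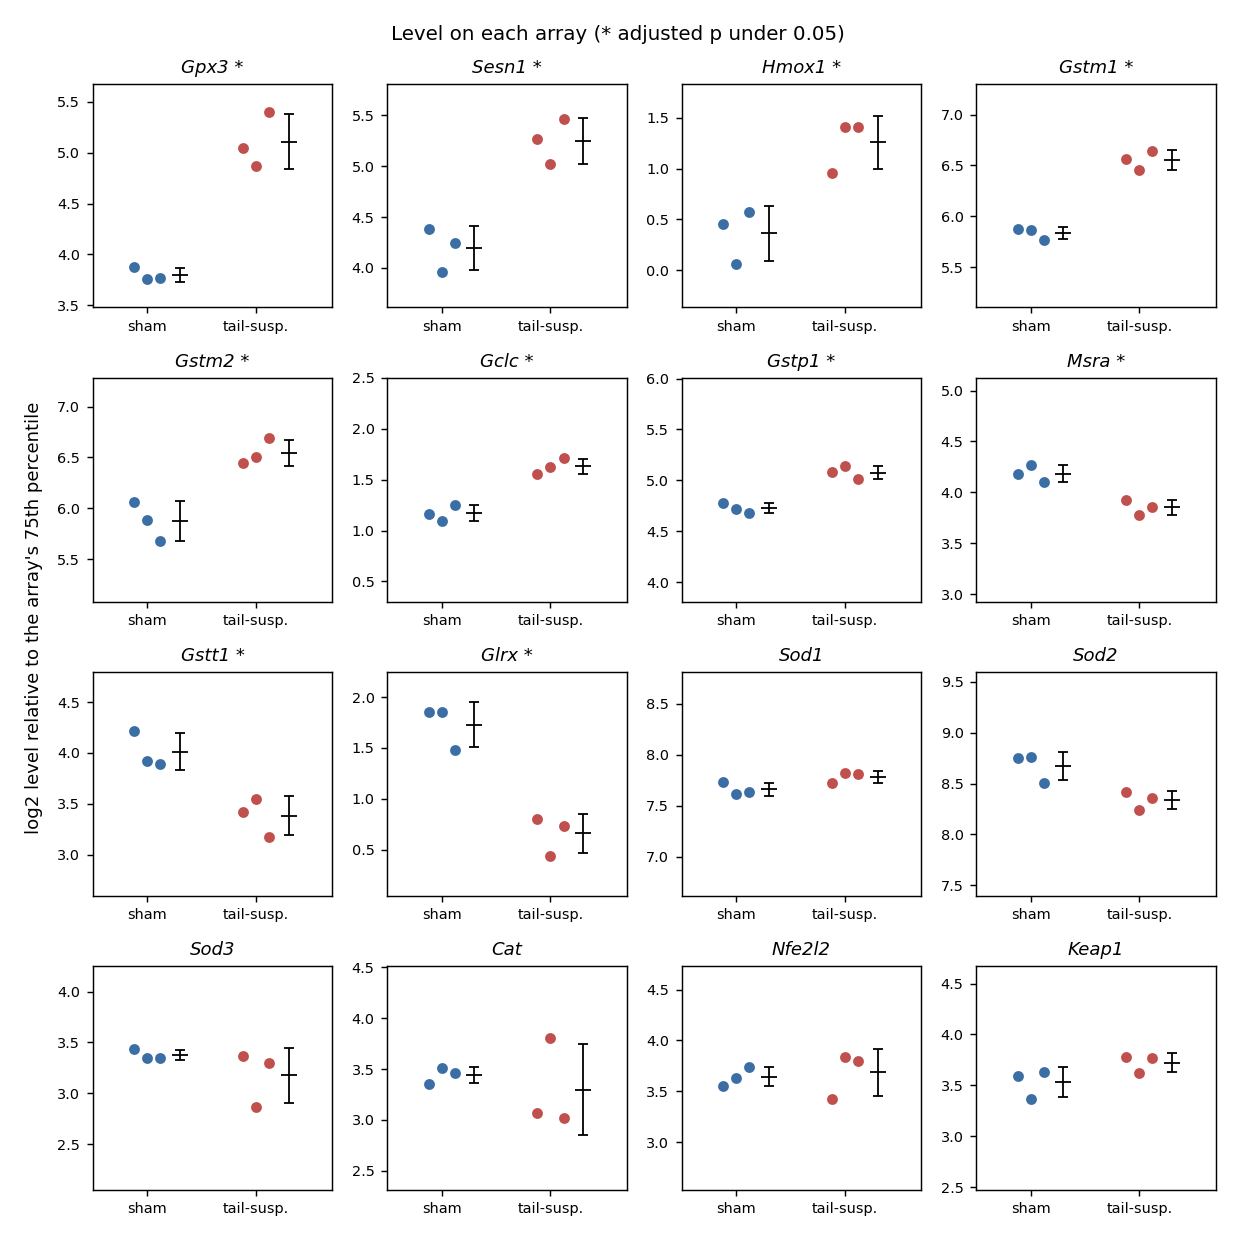
Log2 level (vertical axis, scaled to the array's 75th percentile) on each of the 3 sham arrays (blue) and 3 tail-suspension arrays (red), with the mean and SD of each group in black, in panels of equal height for the 10 genes called (asterisk) and 6 more. The groups do not overlap in any panel with an asterisk, while Sod1, Sod3, Cat, Nfe2l2 and Keap1 overlap.

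Peroxiredoxins, abundant peroxide-reducing proteins with a reactive cysteine, did not pass the test. None of the 6, nor the sulfiredoxin Srxn1 that repairs them, was called by limma, 3 of the 7 had an unadjusted p under 0.05, and the methods' t-test called 0 after adjustment and 3 before it. Those 3 were Prdx3, Prdx5 and Prdx6, and for each of them every tail-suspension array was below every sham array. Prdx6, which also acts on phospholipid peroxides, had the largest difference at −0.40 (adjusted p = 0.0558). Its 3 other probes gave −0.26, −0.32 and −0.32, and none passed. Without sham 3 the log2 fold change of Prdx6 was −0.50 (adjusted p = 0.034). It did not pass with any other array left out (adjusted p from 0.0671 to 0.171 in limma).

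Prdx3, the mitochondrial peroxiredoxin, had a log2 fold change of −0.23, and Prdx5, found in mitochondria and peroxisomes, had −0.26 (adjusted p = 0.0817). Prdx1 and Prdx2, mainly of the cytosol, had −0.12 and −0.14. Prdx4, of the endoplasmic reticulum, was the one peroxiredoxin with a positive value, 0.25, and Srxn1 had −0.06. Under quantile normalization both Prdx5 and Prdx6 passed the adjusted threshold, and so did Sod2.

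In the thioredoxin system, which passes electrons from NADPH to peroxiredoxins and other proteins, limma called 0 of 5 genes. Before adjustment Txn1 and Txnip had a p under 0.05 in limma, and Txn1 and Txn2 in the methods' t-test, which called 0 after adjustment. Txn1, the cytosolic thioredoxin, had a log2 fold change of −0.31 (adjusted p = 0.0855) and Txn2, the mitochondrial form, had −0.17, each with no overlap between groups. For Txn2 a much dimmer second probe gave 0.51 (adjusted p = 0.105), the opposite sign, so the direction of Txn2 depended on the probe. The reductases Txnrd1 of the cytosol and Txnrd2 of mitochondria had 0.05 and −0.14.

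Txnip encodes a protein that binds thioredoxin and inhibits it. It had a log2 fold change of 0.80, the largest of any gene not called, with every tail-suspension array above every sham array and an adjusted p of 0.0611. The sham arrays varied more for Txnip than for any other gene of the set, with an SD of 0.47, and sham 1 was the highest of them. Without sham 1 the log2 fold change was 1.05 (adjusted p = 0.0319). Txnip did not pass with any other array left out (adjusted p from 0.1 to 0.155 in limma). The second Txnip probe gave 0.73 and did not pass.

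Glutathione is built by glutamate-cysteine ligase, with the catalytic subunit Gclc and the modifier subunit Gclm, and then by the synthase Gss. Of these genes and the reductase Gsr, only Gclc passed. The mean log2 level of Gclc was 1.17 ± 0.08 in sham and 1.63 ± 0.08 in tail-suspended hearts (SD, n = 3 each), with no overlap. Its log2 fold change was 0.46 (SE 0.09, adjusted p = 0.0197 in limma), and the call was lost without sham 1 (0.46, adjusted p = 0.0644), sham 2 (0.42, adjusted p = 0.0818) or tail-suspension 3 (0.42, adjusted p = 0.0736).

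Gclm had a larger estimate, 0.61, and a much wider interval, −0.11 to 1.33. Its tail-suspension log2 levels of −1.36, −0.19 and −0.85 had an SD of 0.58, the largest in the set, and tail-suspension 1 lay within the sham range of −1.67 to −1.07. Whether the partner subunits changed unlike each other was not tested. Gss had 0.15, with every tail-suspension array above every sham array, and Gsr, which returns oxidized glutathione to its reduced form, had 0.02 with its brighter probe and −0.07 with its dimmer one.

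Glutathione S-transferases attach glutathione to reactive compounds, and 4 of the 6 were called, 3 higher and 1 lower. Gstm1, of the mu class, had log2 levels of 5.87, 5.86 and 5.76 in sham hearts and 6.56, 6.45 and 6.64 in tail-suspended hearts. The groups were far apart beside their spread, and the log2 fold change was 0.72 (SE 0.09, adjusted p = 0.00563). Gstm2, also of the mu class, had log2 levels of 6.06, 5.89 and 5.67 in sham hearts and 6.44, 6.51 and 6.69 in tail-suspended hearts. No array overlapped here either, and the log2 fold change was 0.67 (SE 0.13, adjusted p = 0.0177).

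A second Gstm1 probe gave 0.91 and both other Gstm2 probes gave 0.70 and 0.59, and all 3 passed. The mu-class genes are close copies of one another, and the array's annotation places the brighter Gstm1 probe on chromosome 5 of mm9 although the gene is on chromosome 3, so signal shared between mu-class genes cannot be told apart. Without sham 2 the adjusted p of Gstm2 was 0.0663 and without tail-suspension 3 it was 0.0631. Gstm1 passed whichever array was left out.

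Gstp1, the pi-class transferase, had a mean log2 level of 4.73 ± 0.05 in sham and 5.08 ± 0.06 in tail-suspended hearts (SD, n = 3 each), a log2 fold change of 0.35 with an adjusted p of 0.0338. The call was lost whichever array was left out, with adjusted p from 0.0612 without tail-suspension 2 to 0.115 without sham 2. Its second probe, whose accessions name both Gstp1 and Gstp2, gave 0.28 (adjusted p = 0.102). Gsta4, of the alpha class and known to clear the lipid product 4-hydroxynonenal, had 0.02, and Gstk1, the mitochondrial and peroxisomal kappa form, had 0.10.

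Gstt1, of the theta class, went the other way. Its log2 levels were 4.22, 3.92 and 3.90 in sham hearts and 3.42, 3.55 and 3.17 in tail-suspended hearts. The highest tail-suspension array was below the lowest sham array, and the log2 fold change was −0.63 (SE 0.14, adjusted p = 0.0272), or 1.55-fold lower. The call was lost without sham 1 (−0.52, adjusted p = 0.0765), sham 2 (−0.68, adjusted p = 0.0741), tail-suspension 1 (−0.65, adjusted p = 0.0647) or tail-suspension 3 (−0.53, adjusted p = 0.0813).

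Among the genes of thiol and methionine repair, 2 of 3 were lower. Glrx encodes the cytosolic glutaredoxin, which removes glutathione from protein cysteines. Its log2 levels were 1.86, 1.85 and 1.48 in sham hearts and 0.80, 0.44 and 0.74 in tail-suspended hearts. All 3 tail-suspension arrays were well below all sham arrays, with means of 1.73 ± 0.22 and 0.66 ± 0.19 (SD, n = 3 each). The log2 fold change was −1.07 (SE 0.15, adjusted p = 0.00747 in limma), 2.10-fold lower and 321st by fall among the 17137 genes tested. The call was kept whichever array was left out, with values from −1.20 to −0.96. The probe lies at chr13:75986983-75987042 on the plus strand of mm9.

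Glrx2, the mitochondrial glutaredoxin, showed no such difference, with a log2 fold change of −0.001 and an interval of −0.22 to 0.22. The difference between the changes of both glutaredoxins was not tested. Msra, which reduces oxidized methionine, was lower by a small amount, from 4.19 ± 0.09 in sham to 3.85 ± 0.07 in tail-suspended hearts (SD, n = 3 each). Its log2 fold change of −0.33 had an adjusted p of 0.0477, close to the threshold, and the call was lost whichever array was left out, with adjusted p from 0.0574 without sham 3 to 0.16 without sham 2.

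Of the quinone and haem enzymes, Hmox1 was higher and Nqo1 and Hmox2 were not called. Hmox1 is the inducible haem oxygenase, which breaks haem down to biliverdin, iron and carbon monoxide. Its log2 levels were 0.46, 0.06 and 0.58 in sham hearts and 0.96, 1.41 and 1.41 in tail-suspended hearts. The groups did not overlap, and tail-suspension 1 was nearest to the sham arrays. The log2 fold change was 0.89 (SE 0.18, adjusted p = 0.0215), or 1.86-fold.

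For Hmox1 the adjusted p was 0.0564 without sham 1, 0.066 without sham 2 and 0.0736 without tail-suspension 3, with log2 fold changes of 0.94, 0.74 and 0.82. A dimmer Hmox1 probe, placed upstream of the first on mm9, gave 0.22 (adjusted p = 0.176) and did not pass. Hmox2, the form present in most cells at all times, had 0.15. Nqo1, the quinone reductase often read as a marker of NRF2 activity, had 0.11 with an interval of −0.17 to 0.39.

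Sestrins are stress-responsive proteins that restrain the growth kinase mTORC1, and Sesn1 is known as a target of p53 and of FOXO factors. Sesn1 had log2 levels of 4.38, 3.96 and 4.25 in sham hearts and 5.26, 5.02 and 5.47 in tail-suspended hearts. All tail-suspension arrays were above all sham arrays, and the log2 fold change was 1.06 (SE 0.16, adjusted p = 0.00882), or 2.08-fold, 489th by rise among the genes tested. It passed whichever array was left out, with values from 0.94 to 1.17, but not in the methods' t-test after adjustment. Its probe lies at chr10:41628012-41628071 on the plus strand of mm9.

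The other sestrins did not pass. Sesn2 had −0.21 with every tail-suspension array below every sham array, and Sesn3 had −0.39. For Sesn3 the tail-suspension log2 levels were −1.31, −1.32 and −0.60, so tail-suspension 3 alone lay within the sham range of −0.80 to −0.59. Without tail-suspension 3 the log2 fold change was −0.63 (adjusted p = 0.0351). Sesn3 did not pass with any other array left out (adjusted p from 0.295 to 0.445 in limma).

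Nfe2l2 encodes NRF2, the transcription factor that drives many of these genes, and its log2 levels were 3.55, 3.63 and 3.74 in sham hearts and 3.42, 3.84 and 3.80 in tail-suspended hearts. They overlapped, with tail-suspension 1 the lowest of all 6, and the log2 fold change was 0.05 (interval −0.28 to 0.37). Keap1 encodes the adaptor that marks NRF2 for breakdown. Its log2 levels were 3.59, 3.37 and 3.64 in sham hearts and 3.78, 3.62 and 3.77 in tail-suspended hearts, a log2 fold change of 0.19 (interval −0.07 to 0.45). Limma called 0 of these 2 genes, at an unadjusted p under 0.05 as well, and so did the methods' t-test. NRF2 is controlled mainly through the stability of its protein, which arrays do not measure.

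The letters of the antioxidant response element core, TGACNNNGC on either strand, were looked for in the RefSeq promoters of GRCm38.p6, each running from 250 bases before to 50 bases after a gene's start. Of the 42 genes, 35 matched an entry, and Sod3, Hmox1, Msra, Gsr, Prdx6, Gsta4 and Gclc did not. The core was present in 7 of the 35, or 20.0%, against 14.0% of all 27025 genes and 12.4% of all 32851 promoter windows in the table. The 7 were Gclm, Nfe2l2, Prdx1, Sesn2, Sod1, Srxn1 and Txnrd1, and their log2 fold changes ran from −0.21 to 0.61 with none called. None of the 7 called genes with an entry held the core in this window. A match of letters is a description of the window and not a site in use, and elements farther from the start were not looked at.

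The stretches around the core are shown for the genes where it lies before the start. Each is written along the gene's own strand, with the core in capitals. They come from chr3:122245398-122245456 (plus strand, core 134 bases before the start) for Gclm, chr4:116685441-116685499 (plus, 133 bases) for Prdx1, chr10:82859089-82859147 (plus, 92 bases, 1 of the gene's starts) for Txnrd1, chr16:90220681-90220739 (plus, 56 bases) for Sod1, chr4:132510459-132510517 (minus, 36 bases) for Sesn2 and chr2:75704870-75704913 (minus, 240 bases) for Nfe2l2. The core runs against the gene's strand in Gclm, Prdx1, Txnrd1 and Sod1 and along it in Sesn2 and Nfe2l2, and in Srxn1 it lies past the start.
Gclm: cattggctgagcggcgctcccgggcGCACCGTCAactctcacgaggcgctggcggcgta
Prdx1: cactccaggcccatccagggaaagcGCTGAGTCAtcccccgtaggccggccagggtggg
Txnrd1: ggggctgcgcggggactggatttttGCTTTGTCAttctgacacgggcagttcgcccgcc
Sod1: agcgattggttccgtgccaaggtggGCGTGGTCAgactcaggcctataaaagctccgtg
Sesn2: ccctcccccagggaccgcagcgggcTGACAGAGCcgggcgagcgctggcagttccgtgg
Nfe2l2: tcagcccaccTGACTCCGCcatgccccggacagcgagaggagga

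**Figure D3:**
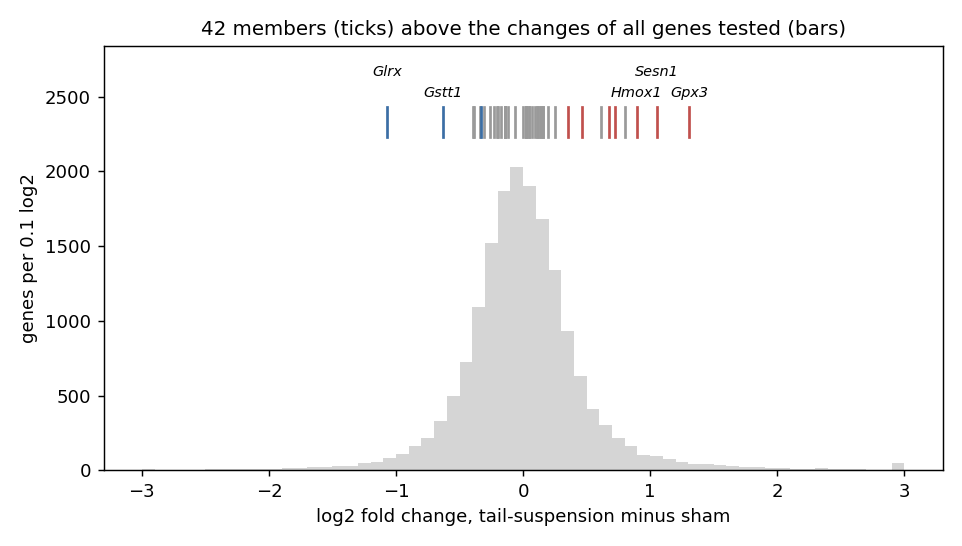
Number of genes (vertical axis, bars) per 0.1 log2 of change (horizontal axis, tail-suspension minus sham) for all 17137 genes tested, with values beyond 3 counted in the outermost bars, and the 42 genes as ticks above them (red higher, blue lower, grey not called). Most ticks lie over the centre of the bars, where the median is −0.02, and Glrx at −1.07 and Gpx3 at 1.31 lie farthest out on either side.

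Neighbouring genes were read from 7 further lists, each under a working name. Beside their counts, and those of the markers below, stand 10.1% of all genes tested higher and 10.5% lower. The share called in either direction was 17.6% for other glutathione S-transferases, 22.2% for other NRF2-linked targets and 21.1% for the selenium list. It was lowest for NADPH supply at 7.14% and highest for cysteine supply and glutathione turnover at 47.4%. In cysteine supply and glutathione turnover, 6 of 19 tested genes were higher and 3 were lower, with a median of 0.24. Cdo1, which oxidizes cysteine towards taurine, was higher by 3.11, Cbs, which makes the cysteine precursor cystathionine, by 2.33, and Chac1, which cleaves glutathione, by 1.80. Those lower were Chac2 at −0.82, the amino acid transporter Slc7a5 at −0.57 and Ggct at −0.53, the last acting on gamma-glutamyl peptides. All these changes passed limma's adjusted threshold, and Cdo1 was a dim gene in sham hearts, with log2 levels of −4.03, −3.47 and −3.80 against −0.83, −1.48 and 0.34 in tail-suspended hearts.

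Among other glutathione S-transferases, 3 of 17 were higher and none was lower. They were Gstm4 at 0.70 and Gstm3 at 0.69, both again of the mu class with its shared sequence, and Gsto2 at 0.54. Gstm5 at 0.055, Gstm6 at −0.039 and Gstm7 at 0.283, also of the mu class, were not called. Of partners and regulators of NRF2, 3 of 14 were higher, Maff at 2.19, Sqstm1 at 0.92 and Mafk at 0.82, and Pgam5 was lower at −0.48. MAFF and MAFK are small MAF proteins, which pair with NRF2 on DNA, and SQSTM1 is an autophagy receptor that binds KEAP1. Maff had log2 levels of −1.03, −0.71 and −0.32 in sham hearts and 1.48, 1.25 and 1.79 in tail-suspended hearts.

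The list of other NRF2-linked targets had 3 of 18 genes higher. They were Trp53inp1 at 1.19, the epoxide hydrolase Ephx1 at 0.76 and the ferritin light chain Ftl1 at 0.54, and Akr1b10 was lower at −0.59. Trp53inp1 is named after p53, and the link of these genes to NRF2 was not tested. Genes of NADPH supply had 0 of 14 higher and 1 lower, the malic enzyme Me1 at −0.67. Selenoproteins and selenium handling had 2 of 19 higher, Selenom at 0.60 and Selenow at 0.35, and 2 lower, Pstk at −0.59 and Secisbp2 at −0.32. In other thiol repair and peroxide removal, 1 of 18 was higher, Ucp2 at 0.64, and 4 were lower, led by the matrix peroxidase Pxdn at −1.37, Tmx1 at −0.72 and Msrb2 at −0.50.

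**Figure D4:**
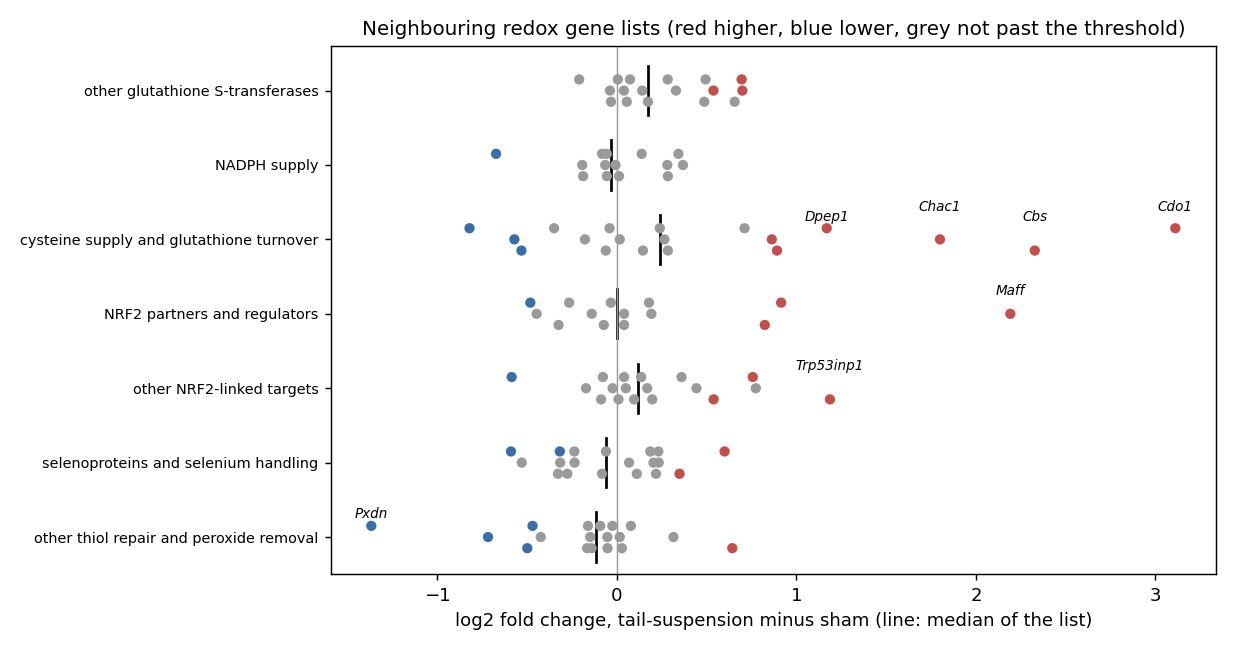
Log2 fold change (horizontal axis, tail-suspension minus sham) of the tested genes of 7 neighbouring lists, 1 row per list, with the median as a black line, genes higher in red, lower in blue and not called in grey. Cysteine supply and glutathione turnover has the widest spread, from −0.82 to 3.11, and the medians of the 7 lists lie between −0.12 and 0.24.

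Some markers of other cells differed between the groups, and others did not. In a whole tissue, fewer cells of a type and less RNA per cell cannot be told apart. Red cells carry much catalase, Prdx2 and Gpx1, and the summed level of 9 red-cell markers was 1266 to 1736 in sham and 380 to 1036 in tail-suspended hearts, in multiples of each array's 75th percentile. Hba-a2 and Hba-a1 made 80.8% to 88.1% of these sums. Without both, the sums were 180 to 333 in sham and 45.3 to 151 in tail-suspended hearts. Of the 7 red-cell markers tested, 1 was called lower, and Rhag and Epb4.2 were not well above background on any array.

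Of the neutrophil markers, S100a8 and S100a9 were well above background on all 6 arrays and were higher by 4.80 and 4.61 on the log2 scale. Mpo, Ltf and Retnlg also passed the test, but they reached a signal well above background in tail-suspended hearts alone and entered the test only through them. Elane and Camp, well above background on all 6 arrays, were not called. Elane went the other way, with a log2 fold change of −0.30 and no overlap between groups (adjusted p = 0.0628 in limma). Camp had 1.97 (adjusted p = 0.0653 in limma). The sums over all 11 neutrophil markers on the array were 171 to 200 in sham and 248 to 280 in tail-suspended hearts, of which the Csf3r probe, not called at 0.29, made 77.7% to 99.0%. Without Csf3r they were 2.07 to 2.61 and 10.68 to 62.2.

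Among 11 tested macrophage markers, Mertk was higher at 0.72 and Cx3cr1 lower at −2.44, and Cd163 passed after entering the test only through the tail-suspended hearts. Their sums were 37.4 to 50.1 in sham and 40.9 to 64.7 in tail-suspended hearts. Endothelial markers had 1 of 10 higher, Vwf at 0.98, and 4 lower, Kdr, Tie1, Emcn and Cldn5. Their sums of 266 to 289 and 300.2 to 327 rested on Fabp4, and without it they were 89.6 to 96.7 and 92.7 to 104. Without Fabp4 and Vwf they were 71.69 to 75.08 in sham and 53.58 to 64.35 in tail-suspended hearts, the opposite direction. Fibroblast markers had 1 of 10 lower, Col3a1 at −1.88. Their sums of 336 to 357 and 326 to 423 rested on Dcn, and without it they were 85.9 to 112 and 40.7 to 78.3. Of 10 adipocyte markers only 4 could be tested, and Pnpla2 and Cidea made 96.3% to 99.4% of the sums, so these carry little about adipocytes. Cardiomyocyte markers had 1 of 10 lower, Actc1 at −0.33, with sums of 6421 to 7015 in sham and 5962 to 6124 in tail-suspended hearts. Without Myl3, the brightest, the sums were 5149 to 5727 and 4854 to 5004. Without Myl3 and Actc1 they were 3966 to 4479 and 3838 to 4057, which overlap. The part of any of these cell types in the changes of the 42 genes was not tested.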

How the data were processed

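RNA of 3 sham and 3 tail-suspension samples of mouse cardiac muscle was labelled with Cy3 and hybridised to 1-colour arrays. Each array's scanner file was deposited, with a background-corrected intensity per spot from Agilent Feature Extraction 10.7.1.1. The authors also deposited log2 values of the arrays in 1 table, used as an alternative only. From the deposited intensity, log2 levels minus the array's 75th percentile over probes were computed in R 4.3.3, without control spots and outlier-flagged spots, and spots of 1 probe were averaged. To be tested, a probe needed at least 50% of its spots well above background on all arrays of 1 group or both, which left 28032 probes. Groups were compared with lmFit and eBayes of limma 3.58.1 without covariates, adjusted over these probes by Benjamini-Hochberg, with a threshold of 0.05. A gene was read from its brightest probe. On simulated data of 28003 probes with 200 changed, changes of 1 log2 unit were recovered in 67% and of 2 in 93% of cases. In that simulation 11 unchanged probes were called. Its share of changed probes was far smaller than the share called in the real data, so these rates need not hold there. Probe positions are those of the array's annotation on mm9, for which no gene models were used, so exon and UTR are not given, and promoters are those of RefSeq on GRCm38.p6.

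The members, the neighbouring lists and the tests were chosen with earlier results of these data known. Every member is named. Values on every array are given for genes called with a change of at least 1.5-fold and for Sod1, Sod2, Sod3, Cat, Nfe2l2 and Keap1, and a second probe where its call or sign differed. Values of Gclm, Sesn3, Cdo1 and Maff on single arrays, and second probes with the same call, were added after they were seen. From the neighbouring lists, up to 3 called genes in each direction are named, and mu-class genes not called were added after they were seen. One red-cell marker is not reported here. Scaling, filters, background correction, blocks, array weights, the methods' t-test and each array left out in turn were tried as alternatives.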

Additional observations from a re-analysis of the deposited data

How the results depend on the processing

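Each of the 42 genes was recomputed under 21 alternatives, 6 of which left out 1 array. The direction turned in 26 cases over 10 genes, none of them called. Glrx2, −0.001 in the report, was 0.009 with the 75th percentile over probes detected on all arrays, 0.003 with it over spots (chosen after seeing the data), 0.061 with normexp, 0.015 with quantile normalization and 0.016 with the authors' log2 values. The mean over a gene's probes gave −0.025 for Gsr and 0.17 for Txn2, and a block for the slide row gave −0.068 for Gpx7 and −0.219 for Nfe2l2. With 1 array left out, Glrx2 ran from −0.052 to 0.038, Gpx1 from −0.018 to 0.204, Gpx8 from −0.066 to 0.151, Gsr from −0.023 to 0.075, Gsta4 from −0.182 to 0.154, Nfe2l2 from −0.032 to 0.176, Srxn1 from −0.203 to 0.073 and Txnrd1 from −0.014 to 0.108. The 7 genes of the set that were higher became 3 without the filter on dim probes, 4 by the adjusted t-test of the methods, 0 with the row as a block and 3 to 6 with 1 array left out. The 3 lower became 6 with array weights, quantile normalization or the authors' log2 values, 7 with an intensity trend and robust eBayes, 1 without the filter or by the adjusted t-test, 9 by the unadjusted t-test, 0 with the row as a block and 1 to 4 with 1 array left out. The median of the set, 0.034, ran from −0.010 to 0.092 with 1 array left out. Of all genes, the 1728 higher and 1805 lower became 618 and 546 without the filter, 782 and 784 by the adjusted t-test, 2860 and 3220 by the unadjusted one, and 221 and 137 with the row as a block, and array weights gave 2765 lower. With 1 array left out, 602 to 1843 were higher and 543 to 1627 lower. Gpx3, Glrx, Gstm1 and Sesn1 passed whichever array was left out, and the adjusted t-test lost Sesn1, Hmox1, Gstm2, Gstt1 and Msra. Without tail-suspension 2, 1843 of all genes were higher and 1627 lower, against 1728 and 1805 in the report. Why the counts moved between alternatives was not tested.

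Replicate numbers are shared by both groups, and the deviations of same-numbered arrays from their group means correlated at −0.0200, −0.0176 and 0.0495. With 3 arrays per group these correlations cannot decide whether the numbers pair the samples. With the replicate block, 4 genes of the set were higher and 2 lower, against 7 and 3, and 1043 and 970 of all genes. Gclc, Gstm2, Gstp1 and Msra were the 4 genes whose call was lost. Only 1 of the 3 numbers had its best match in itself.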
